A study of Mus musculus with 21 samples.

Results

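The globin genes of the mouse were followed through 21 RNA libraries of sorted bone marrow cells. The members are the rows Hbb-b1, Hbb-b2, Hba-a1, Hba-a2, Hbb-bh1, Hbb-y and Hba-x of the count table, chosen by name, which makes 7 of 30733 genes. Cells carrying a Stag2 knockout (KO) were set against wild type (WT) in CFU-E, which are erythroid progenitors (4 KO and 3 WT libraries), in GMP, which are granulocyte and monocyte progenitors (4 KO and 3 WT), and in LSK cells, which are stem and multipotent progenitors (3 KO and 4 WT). Stag2 is a subunit of cohesin, the ring complex that holds chromatin loops. The labels give no strain, age, sex or Cre driver for any group, and whether the numbered replicates are different animals is not stated. The p-values therefore describe variation among libraries, part of which may be technical.

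Haemoglobin carries oxygen as a tetramer of alpha-like and beta-like globin chains, each holding a heme. The alpha-like genes (Hba-x, Hba-a1, Hba-a2) and the beta-like genes (Hbb-y, Hbb-bh1 and the adult pair) form separate clusters, each under a distal enhancer region, and each switches from embryonic to adult members in development. Hba-x, Hbb-y and Hbb-bh1 encode embryonic chains, while Hba-a1, Hba-a2, Hbb-b1 and Hbb-b2 encode adult ones. Erythroid cells need alpha and beta chains in balance, and transcription of both clusters climbs steeply as CFU-E mature into erythroblasts.

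Each adult pair consists of near-identical copies, which is why the coding sequence is shown here. In GENCODE annotation of GRCm38, Hba-a1 and Hba-a2 each have 429 coding bases and differ at 1 of them, C381T, with the Hba-a1 base first and positions counted from 1 at the start codon. The adult beta copies of that annotation, Hbb-bs and Hbb-bt, each have 444 coding bases and differ at 1 of them, C417T, with the Hbb-bs base first. The stretches below cover coding bases 352 to 411 of the alpha copies on chromosome 11 and 385 to 444 of the beta copies on chromosome 7, with the differing base in capitals.
Hba-a1: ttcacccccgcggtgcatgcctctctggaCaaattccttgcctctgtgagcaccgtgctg
Hba-a2: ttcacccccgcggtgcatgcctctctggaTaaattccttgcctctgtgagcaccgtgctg
Hbb-bs: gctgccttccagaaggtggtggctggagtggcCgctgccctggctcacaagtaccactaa
Hbb-bt: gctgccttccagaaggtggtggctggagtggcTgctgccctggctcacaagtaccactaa

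After the stop codon the copies differ more, at 82.2% identity over 90 aligned bases for the alpha pair and 70.4% over 135 for the beta pair. Of the 50-base windows in the last 300 bases of the transcript, 80.1% of those of Hba-a1 and 73.7% of those of Hba-a2 also stood in the other copy, against 36.7% for Hbb-bs and 36.3% for Hbb-bt. No source used here says how reads that match both copies were counted, so the value of any single copy is uncertain. The sum of a pair is uncertain too if such reads were left out. Mouse strains carry different adult beta haplotypes, of which one is named Hbb-bs and Hbb-bt and another Hbb-b1 and Hbb-b2. The deposited rows use the second pair of names on build mm9, and which reference copy each row holds was not determined, so neither beta sequence is assigned to a row.

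The proximal promoters show how much further the beta copies differ outside the coding sequence. RefSeq promoters of GRCm38.p6 were searched on both strands for the CCAAT box, the CACCC box, the letters ATATAA of a TATA box and the GATAA motif, and the 120 bases before the start are printed with matches in capitals. The stretches are chr7:103827929-103828048 on the minus strand for Hbb-bs, chr7:103813924-103814043 on the minus strand for Hbb-bt and chr11:32283552-32283671 on the plus strand for Hba-a1.
Hbb-bs: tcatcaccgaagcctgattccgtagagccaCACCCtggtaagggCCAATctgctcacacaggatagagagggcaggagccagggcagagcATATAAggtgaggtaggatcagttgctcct
Hbb-bt: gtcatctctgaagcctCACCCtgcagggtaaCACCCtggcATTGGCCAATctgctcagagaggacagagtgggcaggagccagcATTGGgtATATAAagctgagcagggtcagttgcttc
Hba-a1: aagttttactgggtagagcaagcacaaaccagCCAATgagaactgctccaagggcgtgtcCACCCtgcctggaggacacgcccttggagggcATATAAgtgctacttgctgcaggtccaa

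Over the 250 bases before the start, Hbb-bt held 3 CCAAT and 3 CACCC matches, against 1 of each in Hbb-bs, and 2 of the CCAAT matches in Hbb-bt lie next to each other on opposite strands, sharing no base. Identity over that window was 70.9% for the beta copies and 97.6% for the alpha copies, and Hba-a2 shares an unbroken run of 247 bases with Hba-a1. CCAAT stood in 33.8% of 32851 mouse promoters of the same length, CACCC in 52.0%, ATATAA in 9.1% and GATAA in 22.6%. These matches describe the letters only.

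The libraries differed in depth and kit. Total counts were 3654667 to 5550165 in CFU-E KO and 3737659 to 5210879 in CFU-E WT, 1250683 to 3471881 in GMP KO and 3732769 to 4401993 in GMP WT, and 28697123 to 32196233 in LSK KO and 22813333 to 32165806 in LSK WT. GMP and CFU-E libraries read the 3′ ends of transcripts and LSK libraries read full transcripts, so levels were not compared between LSK and the others. Flow cell A held all GMP libraries with CFU-E KO 1, WT 1 and WT 2, and flow cell B held the remaining CFU-E libraries, KO 2 to 4 and WT 3. Stag2 had a log2 fold change of -1.13 ± 0.205 (SE) in CFU-E and -1.20 ± 0.128 in LSK (edgeR adjusted p = 0.0143 and 0.027), and in GMP of -0.47 ± 0.271 (adjusted p = 0.36). The library labelled GMP KO 4, at 150.2 CPM of Stag2, lay above 2 of the 3 GMP WT libraries, and the values in GMP without it are given below. GMP KO 2, at 98.7 CPM, also lay above GMP WT 3, at 98.3 CPM, so the GMP groups overlap in Stag2 without KO 4 as well.

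All 4 adult globins were detected in every CFU-E library, and globins made up 0.0801% to 0.136% of counts in CFU-E KO and 0.0776% to 0.105% in CFU-E WT. Erythroid markers summed to 4926 to 5652 CPM (read counts scaled to library size with TMM factors) in CFU-E KO and 4042 to 4501 in CFU-E WT, with all 8 markers detected in every library. Among them Alas2, the erythroid enzyme that starts heme synthesis, was near the detection limit, at 0.413 to 1.02 CPM in CFU-E KO and 0.271 to 0.942 in CFU-E WT.

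Of the adult beta rows, Hbb-b1 fell in CFU-E KO. It stood at 135.8, 124.4, 90.35 and 110.7 CPM in KO 1 to 4, against 245.5, 348.3 and 331.7 CPM in WT 1 to 3. Every KO library lay below every WT library. The means were 115.3 ± 19.6 CPM in KO (SD, n = 4) and 308.5 ± 55.2 CPM in WT (n = 3), with a log2 fold change of -1.39 ± 0.177 (edgeR quasi-likelihood test, adjusted p = 0.00113). The log2 fold change was -1.15 within flow cell A, which holds 1 KO and 2 WT libraries, and -1.62 within flow cell B, which holds 3 KO and 1 WT library. With 1 library in an arm of each, these values have no replicate check of their own. The call ended without WT 3, where the log2 fold change was -1.14 (adjusted p = 0.201) and rests on flow cell A alone, with KO 1 against WT 1 and WT 2.

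Hbb-b2, the other adult beta row, had higher values in KO that did not pass the test. It stood at 1152, 1004, 801.8 and 634.8 CPM in KO 1 to 4, against 477.8, 638.0 and 603.0 CPM in WT 1 to 3. KO 4 lay just under WT 2, so the groups overlapped. The log2 fold change was 0.72 ± 0.196 (adjusted p = 0.122). On flow cell A taken alone it was 1.03, and on flow cell B 0.43, again with 1 library in an arm of each. With the adult beta rows merged, the sum was 1013 ± 242 CPM in KO and 881 ± 139 CPM in WT, a log2 fold change of 0.27 ± 0.191, for which no test was made.

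Of the 4 globins tested in CFU-E, 1 was called, against 1.06% of all 10170 genes, and 2 had KO libraries that did not overlap the WT libraries, against 11.8% of all genes. An unadjusted p under 0.05 was found for 3 of the 4, against 9.82% of all genes. Besides Hbb-b1, the row without overlap was Hba-a1, one of the adult alpha rows. It stood at 41.6, 34.2, 17.1 and 22.3 CPM in KO 1 to 4, against 44.1, 62.6 and 55.7 CPM in WT 1 to 3. KO 1 lay just under WT 1, and the log2 fold change of -0.79 ± 0.256 did not pass the test (adjusted p = 0.234). It was -0.37 without WT 3 (adjusted p = 0.995) and -1.18 without KO 1 (adjusted p = 0.127). Hba-a2, the other adult alpha row, had 21.0, 19.6, 12.0 and 11.4 CPM in KO 1 to 4, against 8.72, 16.0 and 11.4 CPM in WT 1 to 3, with overlapping groups (log2 fold change 0.55 ± 0.305, adjusted p = 0.616). The merged alpha rows were at 44.8 ± 16.0 CPM in KO and 66.2 ± 12.9 CPM in WT, a log2 fold change of -0.44 ± 0.243, again with no test. In sorted bulk cells, fewer cells of a type and less RNA per cell cannot be told apart.

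**Figure D1:**
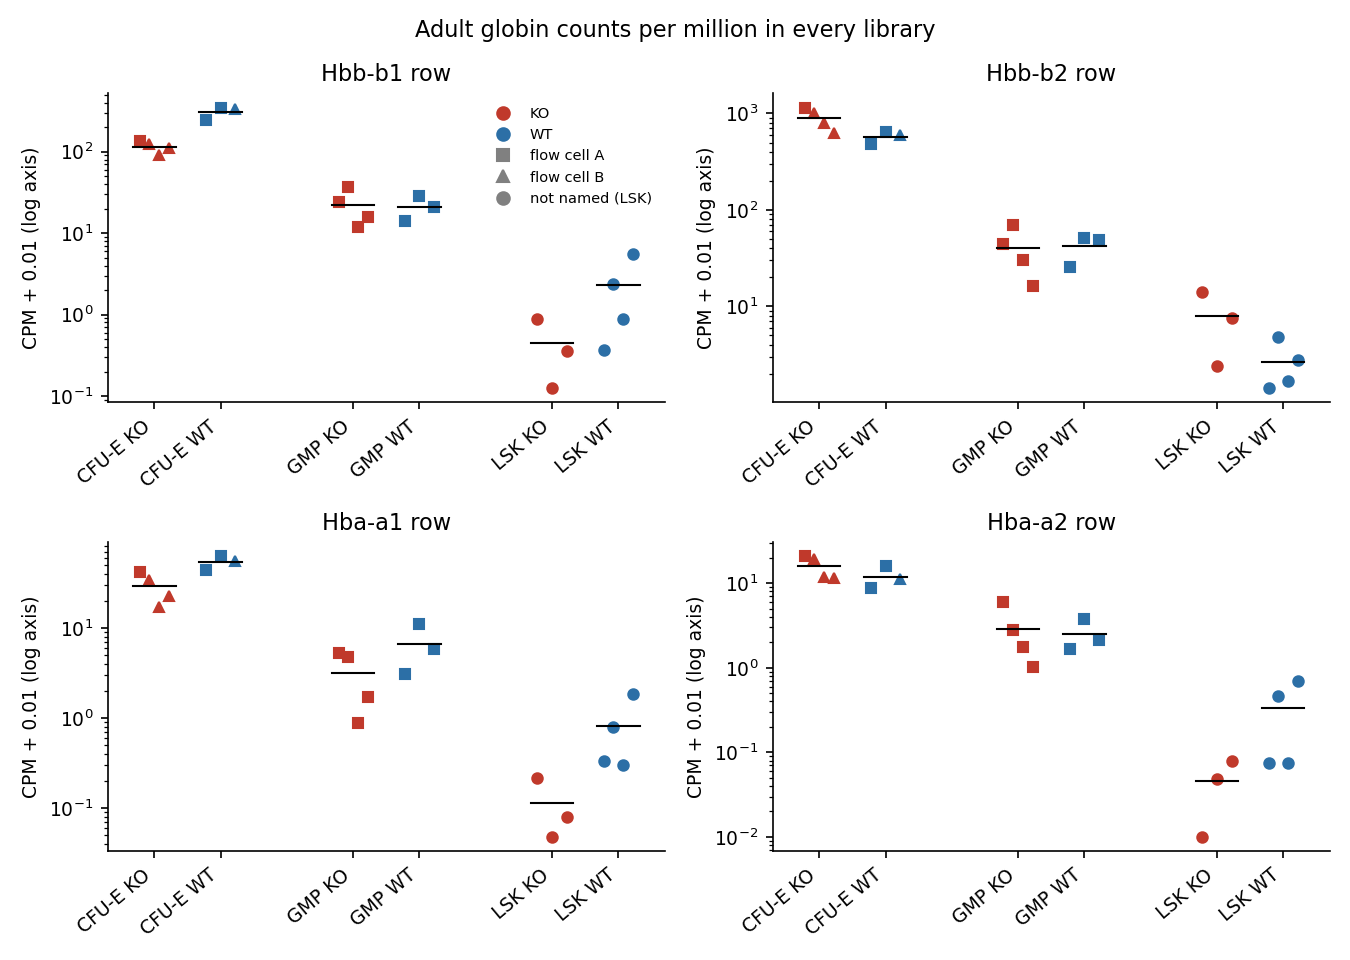
CPM of the 4 adult globin rows in every library on a log axis, after adding 0.01, with KO left of WT in each population, horizontal bars at group means and marker shape showing the flow cell. In CFU-E the KO libraries lie below the WT libraries for Hbb-b1 and Hba-a1 and overlap them for Hbb-b2 and Hba-a2.

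The embryonic genes were at the detection limit in CFU-E. Hbb-y, the epsilon-like embryonic beta gene, and Hbb-bh1 had 0 counts in all 7 libraries, which allows up to 0.159 CPM over the 4 KO libraries and 0.227 CPM over the 3 WT libraries (3 counts over the group, counting error only). Hba-x, the embryonic zeta chain, had 0 counts in KO and 3 counts in WT, all in WT 3. No embryonic globin was detectable in CFU-E KO at this depth.

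The split between the adult beta rows did not overlap between the CFU-E groups. Hbb-b1 held 10.5%, 11.0%, 10.1% and 14.8% of adult beta counts in CFU-E KO 1 to 4, against 33.9%, 35.3% and 35.5% in CFU-E WT 1 to 3. The 3 WT libraries lay within 2 percentage points of each other although they came from both flow cells. The 95% Clopper-Pearson interval, which covers counting error only, was 13.5% to 16.2% for KO 4 and 32.3% to 35.6% for WT 1, the closest libraries of the 2 groups. The mean share was 11.6% ± 2.17 in KO (SD, n = 4) and 34.9% ± 0.846 in WT (n = 3), and the log2 ratio of Hbb-b1 to Hbb-b2 differed by -2.04. An exact two-sided permutation test over libraries gave p = 0.0571, the smallest value that this test allows with 4 against 3 libraries, so it cannot reach 0.05 here. How reads shared between copies were counted and which beta haplotype each library carries are not known. Their part in the splits of CFU-E, GMP and LSK was not tested.

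The alpha pair also differed in its split in CFU-E, with groups that did not overlap. Hba-a1 held 66.4%, 63.5%, 58.9% and 66.1% of adult alpha counts in KO 1 to 4, against 83.5%, 79.7% and 83.1% in WT 1 to 3. These shares rest on 127 to 307 alpha counts per KO library and 224 to 404 per WT library. The log2 ratio of Hba-a1 to Hba-a2 differed by -1.38 (exact permutation p = 0.0571, two-sided). With labels permuted within flow cells, the differences for the beta split and the alpha split were -2.09 and -1.35, each at p = 0.167, the smallest that 12 arrangements allow in an exact test.

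In GMP the beta split overlapped between KO and WT. Hbb-b1 held 34.8%, 34.6%, 28.3% and 49.5% of adult beta counts in GMP KO 1 to 4, against 35.5%, 35.7% and 29.5% in GMP WT 1 to 3. KO 4 stood above the other libraries, and the rest lay between 28.3% and 35.7%. The log2 ratio differed by 0.19 (exact permutation p = 0.914, two-sided), and by -0.066 without KO 4. The difference between the populations in this KO effect was -2.23 on the log2 scale (exact test permuting population labels within genotype over 1400 arrangements, p = 0.0143, Benjamini-Hochberg adjusted p = 0.0429 over 3 ratios). That test was chosen after the values were seen, and it carries no flow cell term. Its null is no population difference in either genotype, so its p does not test equality of the KO effects alone. Stag2 was called lower in CFU-E but not in GMP, and the part of this in the contrast was not tested.

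The alpha split in GMP rests on 8 to 27 counts per KO library and 20 to 51 per WT library. Hba-a1 held 46.7%, 63.0%, 33.3% and 62.5% of them in KO 1 to 4, against 65.0%, 74.5% and 73.3% in WT 1 to 3. The groups did not overlap, but the 95% binomial interval of KO 2, 42.4% to 80.6%, held all 3 WT values. The log2 ratio differed by -1.18 (exact permutation p = 0.0571, two-sided). The difference of this effect between CFU-E and GMP was -0.20 (exact test permuting population labels within genotype, p = 0.78). The null of that test is again no population difference in either genotype, while the WT means of this log2 ratio were 2.19 in CFU-E and 1.25 in GMP. Its p therefore does not test equality of the KO effects alone.

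In LSK cells, globin counts were sparse, at 0.000275% to 0.00158% of counts in KO and 0.000226% to 0.00116% in WT. Hbb-b1 held 5.81%, 4.55% and 4.42% of adult beta counts in LSK KO 1 to 3, against 20.4%, 32.9%, 34.6% and 66.8% in LSK WT 1 to 4. The KO shares rest on 499, 66 and 226 beta counts. The groups did not overlap, although the WT libraries spread widely among themselves, and the log2 ratio differed by -3.47 (exact permutation p = 0.0571, two-sided). The alpha split could not be resolved in LSK KO, which had 13 alpha counts in all.

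**Figure D2:**
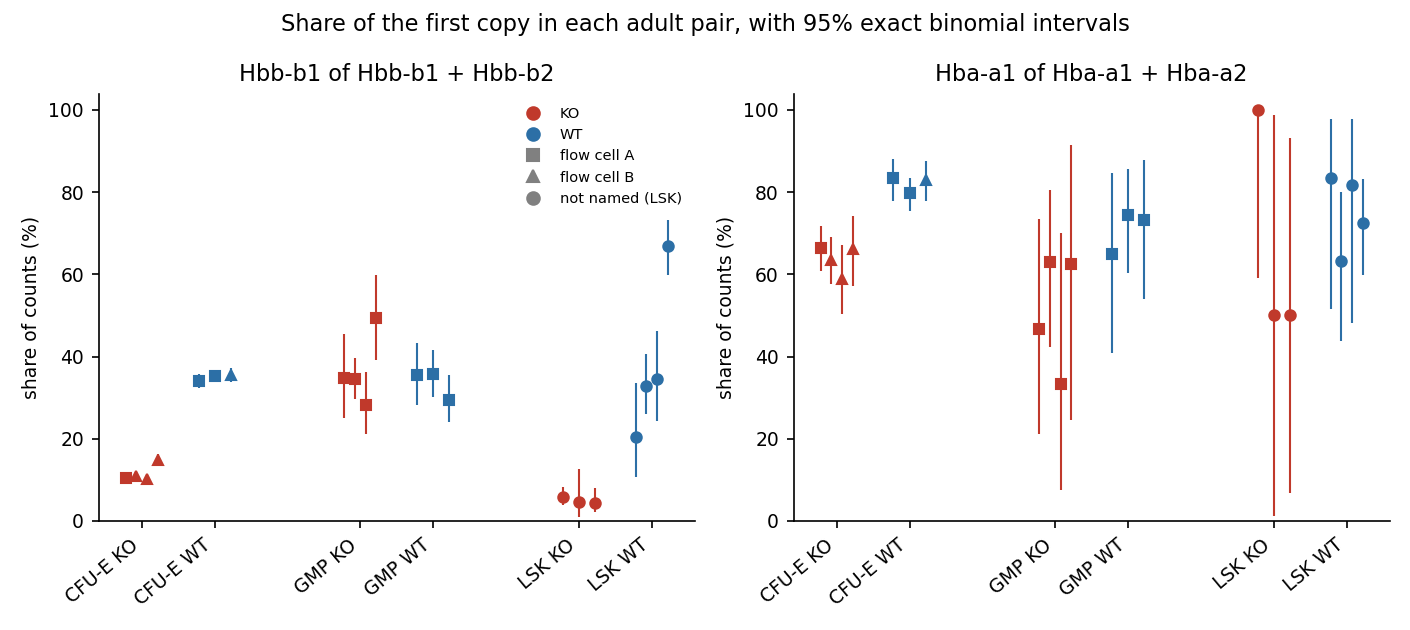
Share of Hbb-b1 in the adult beta counts (left) and of Hba-a1 in the adult alpha counts (right), in percent, for every library, with KO left of WT and vertical lines for 95% Clopper-Pearson intervals. The Hbb-b1 share is 10.1% to 14.8% in CFU-E KO and 33.9% to 35.5% in CFU-E WT, while the GMP groups overlap.

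The balance of the chains was followed as a count ratio. Adult alpha counts per 100 adult beta counts were 4.86, 4.77, 3.26 and 4.53 in KO 1 to 4, against 7.30, 7.97 and 7.18 in WT 1 to 3. The groups did not overlap, with means of 4.36 ± 0.743 in KO (SD, n = 4) and 7.48 ± 0.427 in WT (n = 3). The log2 ratio differed by -0.80 (exact permutation p = 0.0571, two-sided), and by -0.73 within flow cells. Per base of coding length the means were 4.51 in KO and 7.74 in WT. These are count ratios after amplification and 3′ sequencing, so their distance from 100 says nothing of chain output. The alpha copies share more of their windows than the beta copies, and the part of uncounted shared reads in this ratio was not tested.

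In GMP the ratio was 16.3, 7.18, 6.21 and 8.42 in KO 1 to 4, against 11.8, 18.4 and 11.4 in WT 1 to 3, with KO 1 inside the WT range. The log2 ratio differed by -0.58 (exact permutation p = 0.229, two-sided). In LSK cells it was 1.40, 3.03 and 1.77 in KO 1 to 3, against 22.2, 17.6, 14.1 and 30.2 in WT 1 to 4. Every LSK KO library lay below every LSK WT library, on 2 to 7 alpha counts per KO library and 11 to 62 per WT library, and the log2 ratio differed by -3.21 (exact permutation p = 0.0571). Over the 9 ratio tests, the Benjamini-Hochberg adjusted value of each test at 0.0571 was 0.0857.

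**Figure D3:**
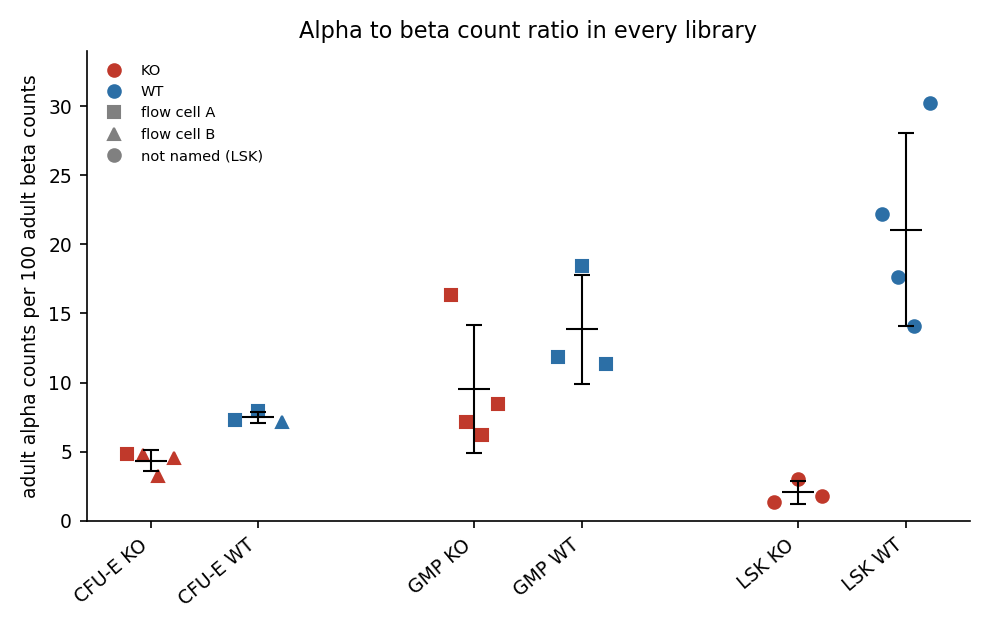
Adult alpha counts per 100 adult beta counts in every library, with KO left of WT, and mean ± SD in black. CFU-E KO libraries lie between 3.26 and 4.86 and CFU-E WT libraries between 7.18 and 7.97, and LSK KO libraries lie between 1.40 and 3.03.

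Single globin rows did not pass the test in GMP or LSK cells. In GMP, Hbb-b1 had 23.8, 36.6, 11.9 and 15.9 CPM in KO 1 to 4, against 14.1, 28.4 and 20.7 CPM in WT 1 to 3. Hbb-b2 had 44.6, 69.2, 30.3 and 16.2 CPM in KO 1 to 4, against 25.5, 51.1 and 49.3 CPM in WT 1 to 3. Both rows overlapped between groups, as did both alpha rows, against 15.8% of all genes without overlap, with log2 fold changes of 0.07 ± 0.356 and -0.07 ± 0.378 (edgeR adjusted p = 0.935 and 0.941). Of 4 globins tested in GMP, 0 were called (edgeR) and 0 had an unadjusted p under 0.05, against 1.45% of all 9969 genes called and 17.9% at that unadjusted threshold, and 0 were called by DESeq2.

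The alpha rows in GMP were low. Hba-a1 had 5.20, 4.78, 0.873 and 1.69 CPM in KO 1 to 4, against 3.04, 10.9 and 5.83 CPM in WT 1 to 3 (log2 fold change -1.15 ± 0.565, adjusted p = 0.295). Hba-a2 had a log2 fold change of 0.04 ± 0.588 (adjusted p = 0.978). With rows merged and no test made, the log2 fold change was -0.69 ± 0.504 for adult alpha and -0.02 ± 0.351 for adult beta. Without the library labelled GMP KO 4, the log2 fold changes were 0.22 for Hbb-b1, 0.22 for Hbb-b2, -0.94 for Hba-a1 and 0.33 for Hba-a2, none of them called. Without it the log2 ratio differed by -1.37 for the alpha split and by -0.57 for alpha to beta. Hbb-y had 1 count, in KO 2, and Hbb-bh1 and Hba-x had 0 in all GMP libraries, which allows up to 0.275 CPM over the KO group and 0.244 CPM over the WT group. The KO effect in CFU-E minus that in GMP, from an interaction term with flow cell, was -1.38 ± 0.441 for Hbb-b1 (adjusted p = 0.203), 0.85 ± 0.496 for Hbb-b2, 0.45 ± 0.630 for Hba-a1 and 0.60 ± 0.658 for Hba-a2. None of these 4 was called, and 1 had an unadjusted p under 0.05, against 0.445% of 11006 genes called and 13.6% at that unadjusted threshold.

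In LSK cells, Hbb-b1 had 0.861, 0.114 and 0.349 CPM in KO 1 to 3, against 0.359, 2.34, 0.883 and 5.61 CPM in WT 1 to 4. Hbb-b2 had 13.9, 2.397 and 7.53 CPM in KO 1 to 3, against 1.40, 4.75, 1.67 and 2.78 CPM in WT 1 to 4. Both overlapped between groups, against 7.89% of all genes without overlap, with log2 fold changes of -2.33 ± 0.966 and 1.59 ± 0.593 (edgeR adjusted p = 0.605 and 0.526). Without single libraries, Hbb-b1 ranged from -3.25 (without KO 1) to -1.38 (without WT 4) and Hbb-b2 from 0.92 (without KO 1) to 2.05 (without KO 2), with none called. Of these 2 tested globins 0 were called by edgeR or by DESeq2, against 0.0793% of all 17664 genes called by edgeR. Both had an unadjusted p under 0.05, against 7.88% of all genes.

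Hba-a1 and Hba-a2 were below the LSK filter. Hba-a1 had 7, 1 and 2 counts in KO 1 to 3, against 10, 19, 9 and 45 in WT 1 to 4, and Hba-a2 had 0, 1 and 2 counts against 2, 11, 2 and 17. The embryonic rows held 0 to 9 counts in any LSK library, with the 9 being Hbb-y in KO 2. Merged adult alpha was at 0.141 ± 0.0658 CPM in KO (SD, n = 3) and 1.13 ± 1.02 CPM in WT (n = 4), a log2 fold change of -2.92 ± 0.837, and merged adult beta had 0.77 ± 0.661, with no test made. Markers of red cells and reticulocytes, which carry globin RNA, summed to 31.2 to 33.6 CPM in LSK KO and 24.0 to 28.2 in LSK WT. Markers of other cells were measured in the same libraries, and no marker was called by edgeR, against 0.0793% of all genes. B cell markers had a median log2 fold change of -1.90 (6 tested, summing to 68.2 to 128 CPM in KO and 101 to 281 CPM in WT) and monocyte markers of -1.09 (6 tested, 236 to 852 CPM in KO and 406 to 1248 CPM in WT). Neutrophil markers had a median of -1.23 (10 tested, 6052 to 16466 CPM in KO and 10685 to 20307 CPM in WT) and megakaryocyte markers of 0.56 (11 tested, 745 to 842 CPM in KO and 468 to 616 CPM in WT). An unadjusted p under 0.05 was found for 4 B cell, 3 monocyte and 2 neutrophil markers, each lower in KO. It was found for 8 megakaryocyte markers, 7 of them higher in KO, against 7.88% of all genes in either direction. The part of these cells in the LSK globin counts and ratios was not tested.

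**Figure D4:**
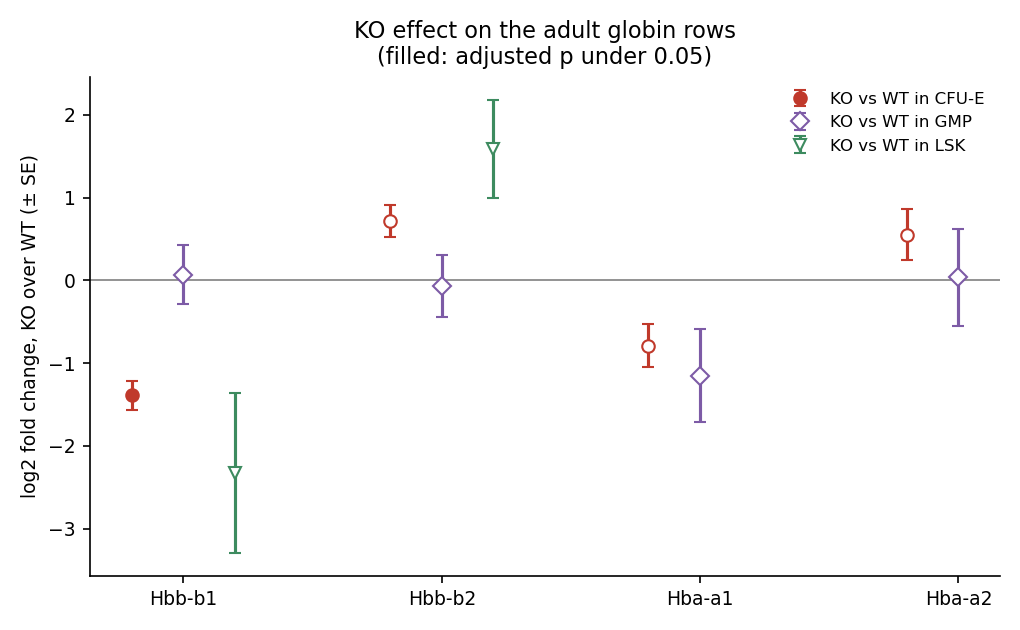
Log2 fold change of KO over WT, with its standard error, for the adult globin rows in CFU-E, GMP and LSK cells, where filled points have an adjusted p under 0.05 and the alpha rows were not tested in LSK cells. Hbb-b1 in CFU-E is the filled point, at -1.39.

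The same rows were set against each other between populations in WT cells. In WT CFU-E and WT GMP, Hbb-b1 averaged 263 ± 52.9 and 23.2 ± 7.95 CPM (SD, n = 3 each, scaled over those 6 libraries), a log2 fold change of 3.46 ± 0.288. Hbb-b2 was higher by 3.37 ± 0.285, Hba-a1 by 2.67 ± 0.369 and Hba-a2 by 1.96 ± 0.455 on the log2 scale (edgeR adjusted p = 4.56e-10, 5.83e-10, 1.74e-06 and 0.000978). All 4 tested globins were called higher in WT CFU-E, against 21.9% of 10329 genes. The call of Hba-a2 ended without CFU-E WT 2 (log2 fold change 1.41, adjusted p = 0.0591). Late erythroid genes were higher as well, with 31 of 33 called higher and a median log2 fold change of 5.18, as were 18 of 23 genes of heme and haemoglobin assembly (median 2.19).

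A list of factors known to act on the globin clusters was followed in CFU-E, of which 40 are in the table and 35 were tested. Of these 35, 0 were called by edgeR, against 1.06% of all 10170 genes, and the median log2 fold change was -0.04, against 0.00 over all genes. An unadjusted p under 0.05 was found for 5, with 2 higher and 3 lower in KO, against 9.82% of all genes. Klf1, the activator that binds CACCC in the adult beta promoter, averaged 651.9 ± 58.5 CPM in KO and 660.9 ± 83.6 CPM in WT (log2 fold change 0.04 ± 0.148). Zbtb7a, a repressor of fetal globin in human cells, had a log2 fold change of 0.06 ± 0.139 and Chd4, the remodelling enzyme of the NuRD complex, of -0.05 ± 0.164. The largest of the 5 by level was Myb, a progenitor factor, at 384.9 ± 65.2 CPM in KO and 598.7 ± 57.7 CPM in WT (log2 fold change -0.61 ± 0.171, adjusted p = 0.144), named after its values were seen.

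Genes of heme and haemoglobin assembly gave 0 calls among 22 tested in CFU-E, against 1.06% of all genes, with a median of 0.04. An unadjusted p under 0.05 was found for 4, with 2 higher and 2 lower in KO, against 9.82% of all genes. Prdx2, a red cell peroxidase, Fth1, the ferritin heavy chain, and Atf4, a stress transcription factor, had log2 fold changes of 0.05 ± 0.176, -0.01 ± 0.136 and 0.08 ± 0.154. Of 34 late erythroid genes 7 had an unadjusted p under 0.05, with 2 higher and 5 lower in KO, against 9.82% of all genes. The 34 late erythroid genes gave 0 calls and a median of -0.005. Their most abundant member Car1, a carbonic anhydrase, averaged 3781 ± 454 CPM in KO and 2447 ± 172 CPM in WT without passing the test (log2 fold change 0.56 ± 0.163, adjusted p = 0.155). Car2, another carbonic anhydrase, and Aqp1, a water channel of the red cell membrane, had log2 fold changes of 0.12 ± 0.15 and -0.32 ± 0.161.

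Markers of another lineage moved in the same CFU-E libraries. Of 11 tested megakaryocyte markers 5 were called higher in KO, against 1.06% of all 10170 genes called in either direction. The 11 had a median log2 fold change of 1.66, and the markers summed to 666 to 1399 CPM in KO and 181 to 411 CPM in WT. The called markers were Plek, Itgb3, Ppbp, Itga2b and Gp5, with log2 fold changes of 1.66 ± 0.256, 1.88 ± 0.299, 3.45 ± 0.611, 1.56 ± 0.287 and 1.47 ± 0.279. Of the 12 markers in the table, 11 were detected in every CFU-E library, and the platelet receptor Gp6 was at 0 in some libraries of both groups. Of 14 progenitor genes 1 was called, against 1.06% of all genes. It was Itga2b, the platelet integrin alpha chain, at 168 ± 61.3 CPM in KO and 54.9 ± 16.0 CPM in WT (edgeR adjusted p = 0.0163). Neutrophil markers summed to 330 to 960 CPM in KO and 336 to 687 CPM in WT, with 0 of 10 called. On the log2 scale 10 of 10 lay above 0 (median 0.67). An unadjusted p under 0.05 was found for 5, each higher in KO, against 9.82% of all genes in either direction. Red cell markers summed to 234 to 439 CPM in KO and 353 to 367 CPM in WT. The part of these cells in the globin values was not tested.

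In GMP, of 34 globin regulators, 24 heme genes and 22 late erythroid genes 0 were called by edgeR, against 1.45% of all genes. In these 3 lists 5, 3 and 1 had an unadjusted p under 0.05, against 17.9% of all genes, with medians of 0.16, -0.23 and -0.08. Red cell markers summed to 3.38 to 13.8 CPM in GMP KO and 13.1 to 17.2 CPM in GMP WT. Of the markers of other cells 2 were called in GMP, both lower in KO, against 1.45% of all genes called. Among 10 tested neutrophil markers it was the granule gene Ltf (log2 fold change -1.07 ± 0.218). Among 6 tested monocyte markers it was Ly6c2 (-1.02 ± 0.198). In LSK cells, 0 of 39 globin regulators, 26 heme genes and 31 late erythroid genes were called, against 0.0793% of all genes. Of these lists 5, 2 and 2 had an unadjusted p under 0.05, against 7.88% of all genes, with medians of 0.14, 0.01 and -0.06.

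None of the genes around the clusters was called in CFU-E, GMP or LSK, against 1.06%, 1.45% and 0.0793% of all genes. Among 20 tested neighbours of the Hbb cluster, ordered by RefSeq of GRCm38.p6, log2 fold changes in CFU-E ran from -0.31 to 0.53. Among 20 of the Hba cluster they ran from -0.90 to 1.004. In GMP the ranges were -0.77 to 1.08 and -0.53 to 1.71, and in LSK -1.19 to 0.80 and -1.35 to 1.06. Groups did not overlap for 0 Hbb and 3 Hba neighbours in CFU-E, against 11.8% of all genes. These counts were 3 and 2 in GMP, against 15.8%, and 1 and 2 in LSK, against 7.89%. Nprl3, whose introns hold the alpha enhancers, was the nearest tested neighbour of the Hba cluster on one side, at 1.004 ± 0.448, and Sh3pxd2b on the other, at 0.71 ± 0.493. Trim68 and Trim34a were the nearest neighbours of the Hbb cluster among genes tested in CFU-E, at 0.53 ± 0.552 and 0.14 ± 0.426.

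The members did not all vary together over the 7 CFU-E libraries. Pearson correlations of log2 CPM were 0.91 between Hbb-b1 and Hba-a1 and 0.88 between Hbb-b2 and Hba-a2, but -0.57 between Hbb-b1 and Hbb-b2 and 0.15 between Hba-a1 and Hba-a2. These points share genotype and flow cell and are given as a description. Among 6938 genes, the pattern of Hbb-b1 was most like that of Usp36, Polr3d, Jund, Bscl2 and Atp2b4 (0.989 to 0.975) and least like that of Fam92a (-0.978). Hbb-b2 was most like Specc1 (0.953) and least like Tgoln1 (-0.975). The highest and lowest correlations of Hba-a1 were with Gpatch4 (0.987) and Mapre2 (-0.985), and those of Hba-a2 with Dnajc30 (0.966) and Tmed4 (-0.994).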

How the data were processed

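The deposited values are raw whole-number counts per gene in one table of 30733 genes by 21 libraries. The authors used STAR 2.4, HTSeq 0.6.1 and DESeq2 on build mm9, per the submitters' processing notes. No source used here states the annotation or the strand setting. Members and gene lists were chosen with earlier results of these data known. Fits were made in R 4.3.3 with edgeR 4.0.16 (filterByExpr at a minimum count of 10 and total of 15, TMM, quasi-likelihood test, Benjamini-Hochberg adjusted p under 0.05), and every fit holding CFU-E libraries had flow cell as a covariate. SE is the log2 fold change over the square root of F. Of the 7 globins, 4 passed the filter in CFU-E and GMP and 2 in LSK. Ratios used a pseudocount of 0.5 counts and exact permutation tests in scipy 1.17.1. Shares carry 95% Clopper-Pearson intervals. Merged copies were refitted as 1 row. The fits were tested on simulated data. No pair of libraries of a group agreed within sampling noise (chi-square per degree of freedom at least 4.03). Named genes were every member, every gene of a list called in CFU-E, GMP or LSK (for pathway lists with none, the 3 most abundant in CFU-E), the nearest neighbours, and the genes most and least correlated with each adult row. Alternatives were DESeq2 1.42.0 and its size factors, other filters, globin rows left out of library sizes, single libraries left out, replicate and flow cell terms, and another pseudocount. Leaving out GMP KO 1, the shallowest library, together with GMP KO 4 was added after the data were seen.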

Additional observations from a re-analysis of the deposited data

Results flagged for a closer look

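The KO effect on the split of the adult beta rows differed between CFU-E and GMP by -2.23 on the log2 scale of the ratio Hbb-b1 to Hbb-b2 (exact permutation of population labels within genotype, p = 0.0143). The null of that test is no population difference in either genotype, so its p does not test equality of the KO effects alone. That test was chosen after the values were seen, and its Benjamini-Hochberg adjusted p over 3 ratios was 0.0429. In the edgeR interaction with flow cell, Hbb-b1 was not called (adjusted p = 0.203). The Hbb-b1 share was lower in all 4 CFU-E KO libraries than in any CFU-E WT library and overlapped between GMP KO and GMP WT. Stag2 itself was not called lower in GMP. The libraries also differ in flow cell, with 3 of the 4 CFU-E KO libraries on another flow cell than GMP, and its part was not tested here. The part of reads shared between copies and of the beta haplotype was not tested either. Among 21 sets of 4 libraries examined for a library far from the others, over the adult rows, the shares and the alpha to beta ratio, 0 had one, where chance gives about 1 in 20.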

How the results depend on the processing

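Replicate numbers did not pair the libraries (correlations of same-numbered deviations from -0.185 to 0.256), so block results stand here alone. With the replicate block, calls in CFU-E (with the flow cell term) went to 31, against 108, in GMP to 325, against 145, and in LSK to 0, against 14. With the block, Hbb-b1 in CFU-E was at -1.36 (adjusted p = 0.0985) and Hbb-b2 in GMP reversed to 0.16. DESeq2 called 182 genes in CFU-E, 300 in GMP, 342 in LSK and 134 in the interaction, against 49, and no filter gave 333, 601, 38 and 254. A filter of 50 counts gave 67 in GMP and dropping the flow cell term 234 in CFU-E. Leaving out single libraries gave 22 to 143 calls in CFU-E (53 without KO 1), 38 to 211 in GMP, 0 to 123 in LSK and 2 to 72 in the interaction. Hbb-b2 in CFU-E passed with DESeq2 (0.71, adjusted p = 0.0441) and with no filter (0.72, 0.000756), Hba-a1 in CFU-E with no filter (-0.78, 0.00952) and the Hbb-b1 interaction with no filter (-1.39, 0.0102). With single libraries left out, Hbb-b2 in CFU-E ranged from 0.43 to 1.04, Hba-a2 in CFU-E from 0.34 to 0.75, Hba-a1 in GMP from -1.60 to -0.58 and the Hbb-b1 interaction from -1.65 to -0.93. Over its 17 alternatives Hbb-b1 in CFU-E lay between -1.62 and -1.14. The cause of these changes was not tested.

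GMP values near 0 reversed: Hbb-b1 to -0.16 without WT 1 and -0.32 without KO 2 (range -0.32 to 0.34); Hba-a2 to -0.20 without WT 1 and -0.055 without WT 3 (-0.20 to 0.33); Hbb-b2 to 0.096, 0.063, 0.055 and 0.22 without WT 2, WT 3, KO 3 and KO 4 (-0.49 to 0.22). Without GMP KO 1 and KO 4 together, Hbb-b2 was at 0.27, Hba-a2 at -0.090 and the log2 ratio Hbb-b1 to Hbb-b2 at -0.14, while 110 genes were called. That ratio in GMP ranged from -0.066 (without KO 4) to 0.37 with single libraries left out, the Hba-a1 to Hba-a2 ratio in LSK from -1.53 to 0.42 (without KO 2 or KO 3), and the Hba-a1 interaction from -0.11 (without GMP WT 2) to 0.96. In CFU-E the 3 ratios kept their direction under every alternative run, at -2.18 to -1.97, -1.49 to -1.28 and -0.85 to -0.66. Depth limits the alpha rows in GMP and LSK and the embryonic rows throughout.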

Other observations

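Other members of the globin family stood near 0 in the same table. Hbq1b, a theta-like alpha gene, had 1 count in CFU-E KO, in KO 1, and 3, 9 and 0 counts in CFU-E WT 1 to 3. The theta-like copy Hbq1a had 0 or 1 count in every library. Mb, the myoglobin of muscle, had 9, 3 and 9 counts in LSK KO 1 to 3, against 2, 8, 7 and 5 in LSK WT 1 to 4, and 0 in all GMP and CFU-E libraries. Ngb, the neuroglobin of nerve cells, had 1, 5 and 4 counts in LSK KO 1 to 3, against 5, 7, 8 and 1 in LSK WT 1 to 4, and likewise 0 elsewhere. None of these rows passed the filter of any comparison.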
